A study of Danio rerio with 12 samples.

Results

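The comparison described here set camptothecin-treated zebrafish embryos that lack miR-34a against camptothecin-treated wild-type embryos. It was chosen by the genotype and treatment labels, which put 6 of the 12 libraries of the series into it. The table lists 15265 genes, and 11866 of them had enough reads in at least 1 group of libraries to be tested. The mutant CPT group held 3 libraries of miR-34a-/- embryos given 1 µM camptothecin (CPT), and the wild-type CPT group held 3 libraries of wild-type embryos given the same dose. The mutant DMSO and wild-type DMSO groups, of 3 libraries each, received 0.005% DMSO in place of the drug and served to show the same genotype difference without it. The drug was added from a stock in DMSO, and the final solvent content of the CPT groups was not given. All embryos were exposed for 4 h from 24 h post fertilization (hpf) and collected whole at 28 hpf. For each library 30 to 50 embryos were pooled, the RNA integrity number was at least 8, and polyadenylated RNA was sequenced on an Ion Proton instrument. The labels give the mutant genotype as miR-34a-/-, and the column names call it a deletion of mir34a. They name neither the background strain nor separate clutches for the replicates, so p-values measure only how far these pools differed, which may be technical variation.

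MicroRNAs of the miR-34 family are transcribed under direct control of the tumour suppressor p53 and repress the messenger RNAs that carry matches to their seed, among them those of cell cycle and survival genes in mammalian cells. Camptothecin traps DNA topoisomerase I on DNA, which breaks replicating and transcribed DNA and activates p53. In zebrafish embryos p53 activation raises cdkn1a, which encodes the cell cycle inhibitor p21, and mdm2, which encodes the ubiquitin ligase that returns p53 to low levels, and it can end in apoptosis of neural progenitors. Whether loss of miR-34a alters the RNA state of damaged embryos is the question the design poses.

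The targeted gene was reported first, since it checks the genotype labels. The mir34a transcript was counted under the name mir34, which was taken as mir34a. Its reads numbered 0, 0 and 0 in the mutant CPT libraries, against 9, 9 and 32 in the wild-type CPT libraries. In wild-type CPT embryos this came to 0.648 ± 0.433 CPM (counts-per-million of the library total; SD, n = 3), and the groups did not overlap. Set against the limit that a count of 0 allows (3 counts over the mutant group), the transcript was at least 11.4-fold lower in mutant CPT embryos. The 2-sided exact permutation test gave p = 0.1, the smallest value that 3 against 3 libraries allow. These reads come from the polyadenylated precursor, so mature miR-34a was not measured. Without the drug the transcript had no reads in the 3 mutant libraries and 0, 1 and 0 reads in the wild-type libraries, so the genotype could be read from it only after camptothecin. The mir34b and mir34c transcripts had 0 reads in every library.

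Mutant CPT libraries held 13455710 to 21650913 counts and wild-type CPT libraries 20301300 to 27949054. The 10 most abundant genes took 9.19 to 9.58% of the counts in mutant CPT libraries and 10.73 to 12.28% in wild-type CPT libraries. The scaling factors (TMM, trimmed mean of M-values) were 1.007 to 1.029 in mutant CPT libraries and 0.835, 0.877 and 0.962 in wild-type CPT libraries 1, 2 and 3. Wild-type CPT library 3 stood apart from the other libraries of its group. On the first principal component of the 6 CPT libraries, which held 35.9% of the variance, the mutant libraries had scores of -11.59, -22.26 and -17.25, against 33.12, 19.58 and -1.61 for wild-type libraries 1, 2 and 3. The calls over all tested genes and those of several lists are given with and without wild-type CPT library 3. Every marker list of the cell types expected in a whole embryo had reads in every library. CPM values of genes below are scaled by these factors, and a fold change is log2 of mutant over wild-type embryos with its standard error (SE).

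In embryos treated with camptothecin, loss of miR-34a went with a few very large differences, in genes such as ptges3a, szrd1, idh3g and stat6. Many small differences were also present. By the test given next, 13 of 79 tested ribosomal protein genes and 9 of 34 muscle genes were lower. On the hatching gland and yolk layer list 6 of 32 were lower, all 6 for plasma proteins. Of all tested genes 2.16% were lower. With the least favourable CPT library left out, the counts of these lists were 0, 2 and 2. By edgeR's quasi-likelihood test, with a gene called at an adjusted p under 0.05 (Benjamini-Hochberg over all tested genes), 390 genes changed, 3.29% of those tested. Of these, 134 (1.13% of tested genes) rose and 256 (2.16%) fell in mutants. The change reached 2-fold in 57 genes, 0.48% of those tested, of which 24 rose and 33 fell. The 3 mutant libraries did not overlap the 3 wild-type libraries in 388 of the 390 genes, beside 22.7% of all tested genes. Since the calls were made on these same libraries, this is no separate support for them. Both count and balance depended on how libraries were scaled. Scaled by library totals alone, 1195 genes were called, 1088 of them higher and 107 lower, and the median over all tested genes moved to 0.20, beside 0.01 with TMM factors. The count was 123, 91 and 90 without mutant CPT library 1, 2 or 3, and 179, 65 and 1045 without wild-type CPT library 1, 2 or 3. Of all these calls, 47 (14 higher and 33 lower) were made in each of the 22 settings tried, and the same 47 were the ones made with each CPT library left out in turn.

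Of the 10 genes with the smallest p, ptges3a, szrd1 and idh3g had the largest differences. The co-chaperone gene ptges3a, whose protein p23 works with Hsp90, had 0.224, 0.129 and 0.441 CPM in mutant CPT libraries, against 13.5, 14.1 and 17.6 CPM in wild-type CPT libraries. It was 58.2-fold lower in mutants (log2 fold change -5.86 ± 0.30 SE, edgeR adjusted p = 1.28e-10). The groups lay far apart, and so they did without the drug: mutant DMSO libraries held 3 ptges3a reads in all and wild-type DMSO libraries 525, a ratio, scaled to library size, of 151 in favour of the wild type with a 95% counting interval of 51.5 to 737. The gene szrd1, whose product carries an RNA-binding SUZ domain, had 1.03, 1.03 and 2.13 CPM in mutant CPT libraries, against 22.0, 24.3 and 20.8 CPM in wild-type CPT libraries, and was 16.6-fold lower (-4.05 ± 0.25, edgeR adjusted p = 2.18e-09). The log2 difference without the drug was -5.04.

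Mitochondrial NAD-dependent isocitrate dehydrogenase is built from a catalytic subunit, encoded by idh3a, and regulatory subunits encoded by idh3b and idh3g. In mutant CPT libraries idh3g had 0.0449, 0.129 and 0.147 CPM, against 7.38, 6.70 and 9.52 CPM in wild-type CPT libraries, which made it 76.1-fold lower (-6.25 ± 0.37, edgeR adjusted p = 4.56e-09). In DMSO it had 0 reads in the 3 mutant libraries and 532 in the 3 wild-type libraries, at least 153-fold lower against a floor of 3 counts over the group. The other regulatory subunit gene, idh3b, had 1.98, 2.96 and 1.76 CPM in mutant CPT libraries, against 7.32, 5.62 and 5.21 CPM in wild-type CPT libraries (-1.43 ± 0.23, edgeR adjusted p = 0.00221). It fell as well, without overlap between the groups. For idh3a the values were 95.1, 88.1 and 87.7 CPM in mutant CPT libraries and 78.5, 92.3 and 93.7 CPM in wild-type CPT libraries, which overlapped (0.03, edgeR adjusted p = 0.888).

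Of the remaining falls with the smallest p, rimkla encodes the ligase that makes N-acetylaspartylglutamate. It had 4.31, 5.41 and 4.55 CPM in mutant CPT libraries, against 20.8, 19.8 and 19.1 CPM in wild-type CPT libraries (-2.07 ± 0.19, edgeR adjusted p = 1.21e-06), and its log2 difference in DMSO was -1.13. MGC174155, whose product is not named in the table, had 0.853, 0.837 and 0.734 CPM in mutant CPT libraries, against 4.96, 3.69 and 5.28 CPM in wild-type CPT libraries (-2.50 ± 0.30, edgeR adjusted p = 8.73e-05). The aldehyde dehydrogenase gene aldh8a1 had 0.449, 0.772 and 0.954 CPM in mutant CPT libraries, against 6.84, 4.81 and 4.84 CPM in wild-type CPT libraries (-2.97 ± 0.38, edgeR adjusted p = 0.000244). None of these groups overlapped, and the log2 differences of MGC174155 and aldh8a1 in DMSO were -3.37 and -2.88.

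Among the 10, 3 genes were higher in mutants. The gene adnpb, for a homeobox protein related to the activity-dependent neuroprotector of mammals, had 17.3, 18.3 and 20.8 CPM in mutant CPT libraries, against 6.37, 6.92 and 5.17 CPM in wild-type CPT libraries (1.61 ± 0.17, edgeR adjusted p = 9.9e-06). The nucleotide sugar transporter gene slc35c2 had 10.5, 9.40 and 11.2 CPM in mutant CPT libraries, against 2.89, 3.37 and 2.90 CPM in wild-type CPT libraries (1.76 ± 0.19, edgeR adjusted p = 1.34e-05). The gene stat6, for the transcription factor of interleukin-4 and interleukin-13 signalling, had 2.738, 2.703 and 2.716 CPM in mutant CPT libraries, against 0.590, 0.404 and 0.372 CPM in wild-type CPT libraries. It was 6.07-fold higher in mutants (2.60 ± 0.31, edgeR adjusted p = 7.2e-05). In DMSO the log2 differences were 2.38 for adnpb, 2.13 for slc35c2 and 1.72 for stat6. The last of the 10 genes, the cardiac-type actin gene actc1a, differed after camptothecin but not detectably without it and is described with the muscle genes. All 10 were called with each CPT library left out in turn.

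**Figure D1:**
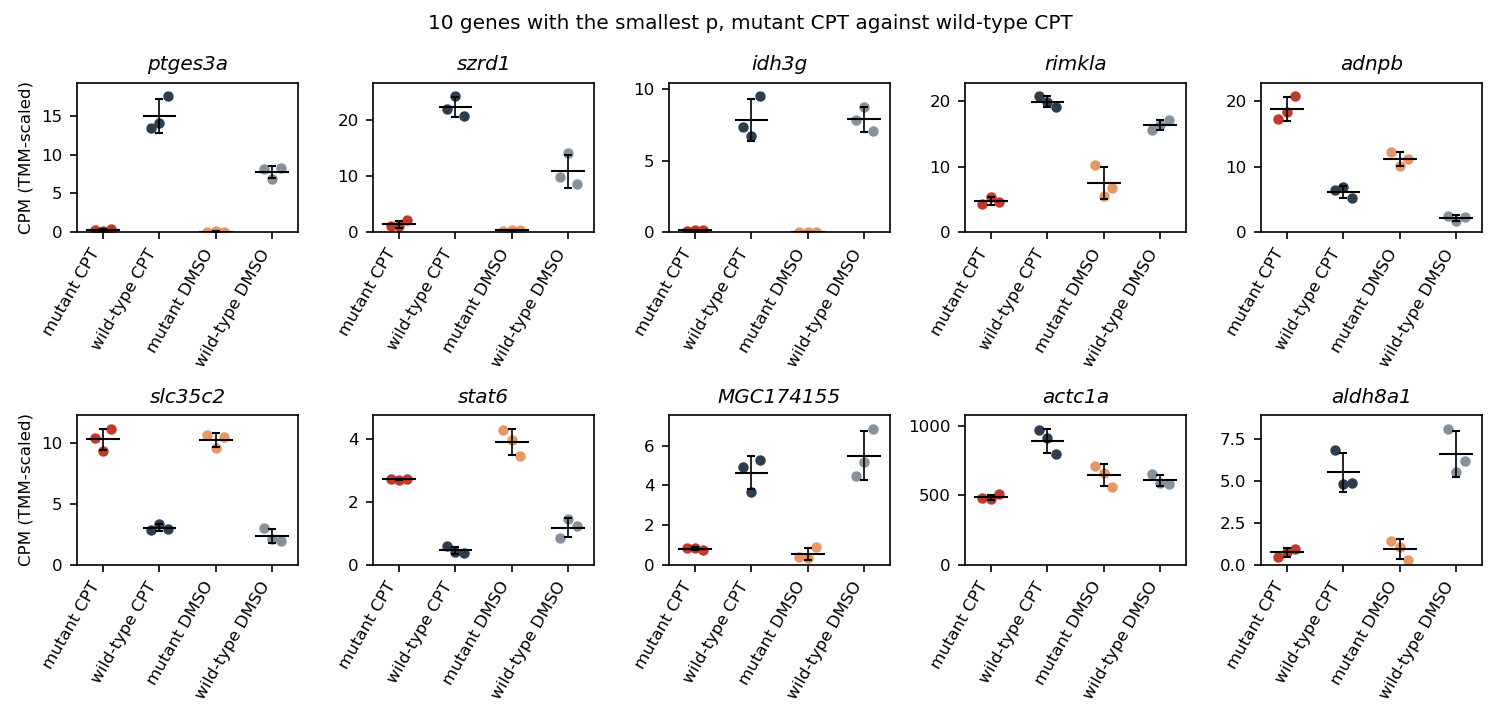
Expression in CPM (TMM-scaled, linear axes) of the 10 genes with the smallest p between mutant and wild-type CPT embryos; points are libraries, lines group means and bars SD (n = 3), in mutant CPT, wild-type CPT, mutant DMSO and wild-type DMSO groups. The 9 genes other than actc1a differ between genotypes in the same direction with and without camptothecin, while for actc1a the genotypes lie apart in the CPT groups and overlap in the DMSO groups.

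Large changes with weaker evidence were also present. The precursor of miR-142a, a microRNA of blood lineages, had 1.12, 1.42 and 0.808 CPM in mutant CPT libraries, against 0, 0.0899 and 0.372 CPM in wild-type CPT libraries (2.63 ± 0.70, edgeR adjusted p = 0.0433). The pantothenate kinase gene pank1a, of coenzyme A synthesis, had 1.48, 1.80 and 0.734 CPM in mutant CPT libraries, against 0.472, 0.270 and 0.372 CPM in wild-type CPT libraries (1.88 ± 0.50, edgeR adjusted p = 0.044). The mir199-1a precursor had 2.78, 3.60 and 3.82 CPM in mutant CPT libraries, against 0.531, 0.764 and 2.34 CPM in wild-type CPT libraries (1.39, edgeR adjusted p = 0.0371). That the groups did not overlap was a condition for naming these rises and adds no support to them. For both precursors the wild-type library nearest to the mutants was wild-type CPT library 3. Without it their log2 fold changes were 4.30 for mir142a and 2.33 for mir199-1a. A further rise was si:dkey-31g6.6 (1.40, edgeR adjusted p = 0.0305), lost in 5 of 6 fits with a CPT library left out, with adjusted p up to 0.127. Among the falls, the ankyrin repeat gene ankrd37 had 1.17, 1.48 and 2.57 CPM in mutant CPT libraries, against 11.3, 7.86 and 7.40 CPM in wild-type CPT libraries (-2.38, edgeR adjusted p = 0.0363). The semaphorin gene sema3b, for a secreted guidance protein, had 0.180, 0.450 and 0.0734 CPM in mutant CPT libraries, against 1.42, 1.03 and 0.930 CPM in wild-type CPT libraries (-2.22, edgeR adjusted p = 0.0206). The calls of the named precursors and genes were lost with single CPT libraries left out: in 5 of the 6 fits for mir142a, mir199-1a and ankrd37, in 6 for pank1a and in 4 for sema3b, with adjusted p up to 0.186, 0.172, 0.135, 0.19 and 0.096 in that order.

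Calls were denser on the chromosome that carries mir34a. Gene order was taken from the GRCz12tu gene table, which differs from the danRer11 build of the counts, so that places in the order are given in place of coordinates. Of 416 tested genes on that chromosome, 36 (8.65%) were called after camptothecin, 13 higher and 23 lower, beside 349 of 11344 (3.08%) on the other chromosomes, where the share ran from 1.3 to 4.8% over 24 chromosomes. In DMSO 16 genes of that chromosome (3.85%) were called, beside 0.598% of all tested genes, and the same 16 were called after camptothecin. It held 16 of the 57 calls of at least 2-fold. Of the 10 genes with the smallest p, ptges3a, szrd1, idh3g, adnpb, stat6 and aldh8a1 lie there, whereas rimkla, slc35c2, MGC174155 and actc1a were not placed on it, nor was idh3b. It also held 14 of the 47 calls made in every setting. By distance from mir34a, 3 of 25 tested genes were called within 50 places (12%), 8 of 33 beyond that up to 100 places (24.2%), 10 of 78 from there up to 200 places (12.8%), 8 of 136 from there up to 400 places (5.88%) and 7 of 144 beyond 400 places (4.86%). The bins were chosen after the values were seen. A genotype difference at these genes that comes from the deletion and one that comes from the fish the chromosome was inherited from cannot be told apart in this design. The same holds for the other chromosomes, since the background strain was not given. They held 13 of the genes called in both treatments.

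The 3 calls within 50 places were spsb1, szrd1 and zgc:154075. At 2 places from mir34a in gene order lies spsb1, which encodes a SOCS-box adaptor of a ubiquitin ligase. It had 2.83, 2.45 and 2.28 CPM in mutant CPT libraries, against 1.36, 1.03 and 1.12 CPM in wild-type CPT libraries (1.12 ± 0.26, edgeR adjusted p = 0.0245). Its difference in DMSO was 0.07, and the CPT call was lost in 4 of the 6 fits with a CPT library left out, with adjusted p up to 0.126. At 44 places lies szrd1, described above, and at 46 places zgc:154075 (0.66), whose call was lost in 4 of 6 such fits with adjusted p up to 0.238. Between 50 and 200 places lay most of the large changes. The cytokine-like gene fam3a, at 67 places, had 3.55, 5.28 and 4.55 CPM in mutant CPT libraries, against 1.42, 1.12 and 1.64 CPM in wild-type CPT libraries (1.66 ± 0.25, edgeR adjusted p = 0.00137). The ciliary microtubule gene ribc1, at 172 places, had 0.180, 0.129 and 0.0734 CPM in mutant CPT libraries, against 1.36, 0.899 and 1.12 CPM in wild-type CPT libraries (-2.99 ± 0.48, edgeR adjusted p = 0.00233). Both kept their direction in DMSO, at 2.24 and -2.67.

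Others of this stretch were kctd6b, for an adaptor of cullin-3 ubiquitin ligases (-2.15), and lrrc23, for a radial spoke protein of motile cilia (-1.60). They were called in DMSO too, at -1.89 and -1.26, and after camptothecin they were called with each CPT library left out. The neighbour of ribc1, smc1a, for a cohesin subunit, rested on 3 reads in all mutant CPT libraries and 41 in all wild-type CPT libraries, a ratio of 9.38 in favour of the wild type with a 95% counting interval of 2.99 to 47.4. Its call (edgeR adjusted p = 0.028) was lost in 4 of the 6 fits with a CPT library left out, with adjusted p up to 0.149. Farther out, neighbouring genes of the cyp2aa cytochrome P450 cluster, at 517 to 526 places, moved in opposite directions: on the log2 scale cyp2aa2 rose by 0.99, cyp2aa4 fell by 0.63 and cyp2aa6 fell by 0.57. Their differences in DMSO were 0.77, -0.59 and -0.75. The cyp2aa2 call held with each CPT library left out, while that of cyp2aa4 was lost in 2 of 6 fits and that of cyp2aa6 in 4, with adjusted p up to 0.0603 and 0.108. Reads of near-identical copies in this cluster could have been split between them.

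**Figure D2:**
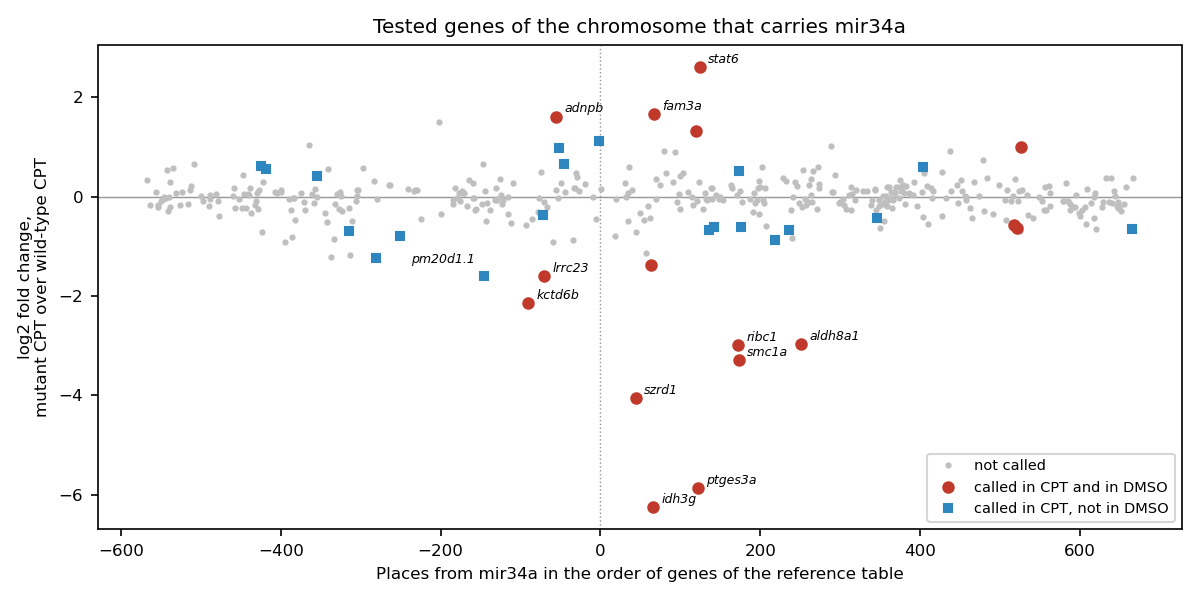
Genotype difference after camptothecin (log2 fold change of mutant over wild-type, linear axis) of the tested genes of the mir34a chromosome against their distance from mir34a in places of gene order, 0 being mir34a. Red circles mark genes called with and without camptothecin and blue squares genes called after camptothecin only; the calls of at least 2-fold lie mostly within 200 places.

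The mutant and wild-type DMSO embryos gave the same genotype contrast in other libraries, which shared the fit and its estimate of spread. There, 71 genes were called (0.598%), 23 higher (0.194%) and 48 lower (0.405%), and 39 of them changed at least 2-fold (0.329%). The DMSO count was 41, 24 and 35 without mutant DMSO library 1, 2 or 3, 196, 27 and 28 without wild-type DMSO library 1, 2 or 3, and 117 without wild-type CPT library 3. In all, 30 genes were called in both treatments, 7.69% of the CPT calls and 42.3% of the DMSO calls. All 30 moved in the same direction, 7 higher and 23 lower, and their median absolute log2 fold change after camptothecin was 1.74, beside 0.55 for the 360 genes called after camptothecin alone. Of the 390 CPT calls as a whole, 229 (58.7%) had the same sign in DMSO, beside 49.9% of all tested genes. Besides the genes described above, the 30 included complement genes. The gene c3b.1, of the C3 family at the centre of complement, had 0.853, 1.48 and 2.06 CPM in mutant CPT libraries, against 5.61, 5.75 and 4.09 CPM in wild-type CPT libraries (-1.86 ± 0.26, edgeR adjusted p = 0.000603), with a log2 difference of -2.28 in DMSO. The complement regulator gene cfh had 4.62, 3.54 and 4.26 CPM in mutant CPT libraries, against 8.91, 10.1 and 10.6 CPM in wild-type CPT libraries (-1.25 ± 0.21, edgeR adjusted p = 0.00305), with a log2 difference of -1.93 in DMSO. In neither gene did the groups overlap. The translation repressor gene eif4ebp1 (-1.22 after camptothecin and -1.08 in DMSO) and the mitotic spindle pole gene aspm (-2.11 and -1.65) fell in both treatments, and ggact.2, for a gamma-glutamylamine cyclotransferase, rose in both (1.11 and 1.12). These 5 calls held with each CPT library left out.

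That a gene was called after camptothecin and not in DMSO does not show that the difference depends on the drug, so the difference between the genotype contrasts was tested itself. This interaction called 19 genes (0.16%), 3 with a positive value (0.0253%) and 16 with a negative one (0.135%). All 19 had opposite signs in the CPT and DMSO contrasts, 17 were called after camptothecin, and 1, the RNA helicase gene ddx54, was called in DMSO. Of the 30 genes called in both treatments, 0 were among them. The count rested on single libraries: it was 0 without mutant CPT library 1, 2 or 3, wild-type CPT library 2, mutant DMSO library 2 or wild-type DMSO library 2, 1 without wild-type DMSO library 3, 28 and 59 without mutant DMSO library 1 or 3, 112 without wild-type DMSO library 1, and 31 and 505 without wild-type CPT library 1 or 3. At an unadjusted p under 0.05 the interaction held 1797 genes with all libraries, and DESeq2 called 343.

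The 5 interaction genes with the smallest p were kcnk6, actc1a, alas1, otx2a and wbp2nl. The background potassium channel gene kcnk6 had 64.5, 56.7 and 63.4 CPM in mutant CPT libraries, against 45.7, 37.3 and 39.1 CPM in wild-type CPT libraries. In DMSO it had 54.1, 44.3 and 56.1 CPM in mutants, against 62.9, 68.3 and 68.1 CPM in the wild type. The mutants were thus higher after camptothecin (0.60, edgeR adjusted p = 0.00691), and the interaction was 0.97 ± 0.16 SE (edgeR adjusted p = 0.0195). The gene alas1, for the rate-limiting enzyme of heme synthesis, had 167.3, 167.0 and 172.9 CPM in mutant CPT libraries, against 253.0, 249.3 and 243.1 CPM in wild-type CPT libraries. In DMSO it had 118.1, 114.7 and 103.5 CPM in mutants, against 104.0, 83.3 and 92.9 CPM in the wild type. It was higher in the CPT group than in the DMSO group of either genotype, and its level in mutant CPT embryos stayed below that of wild-type CPT embryos (-0.56, edgeR adjusted p = 0.0046; interaction -0.82 ± 0.14).

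The forebrain and eye transcription factor gene otx2a had 18.1, 18.9 and 20.3 CPM in mutant CPT libraries, against 24.3, 28.0 and 28.1 CPM in wild-type CPT libraries. In DMSO it had 30.7, 29.7 and 26.6 CPM in mutants, against 22.0, 22.0 and 20.3 CPM in the wild type. The order of the genotypes was thus turned round (-0.50 after camptothecin, edgeR adjusted p = 0.0243; 0.44 in DMSO; interaction -0.93 ± 0.16). The gene wbp2nl had 63.0, 56.6 and 50.4 CPM in mutant CPT libraries, against 83.3, 86.0 and 87.3 CPM in wild-type CPT libraries, and 55.0, 52.8 and 48.2 CPM in mutant DMSO libraries, against 44.8, 46.1 and 42.5 CPM in wild-type DMSO libraries (-0.59 after camptothecin, 0.23 in DMSO, interaction -0.82). The CPT calls of alas1, wbp2nl and actc1a held with each CPT library left out, that of kcnk6 was lost without wild-type CPT library 2 (edgeR adjusted p = 0.0648), and that of otx2a was lost in 4 of 6 fits (adjusted p up to 0.116). The interaction calls of these genes were all lost in the fits named above that left 0 calls. They were also lost without wild-type DMSO library 3, where the 1 call was another gene.

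**Figure D3:**
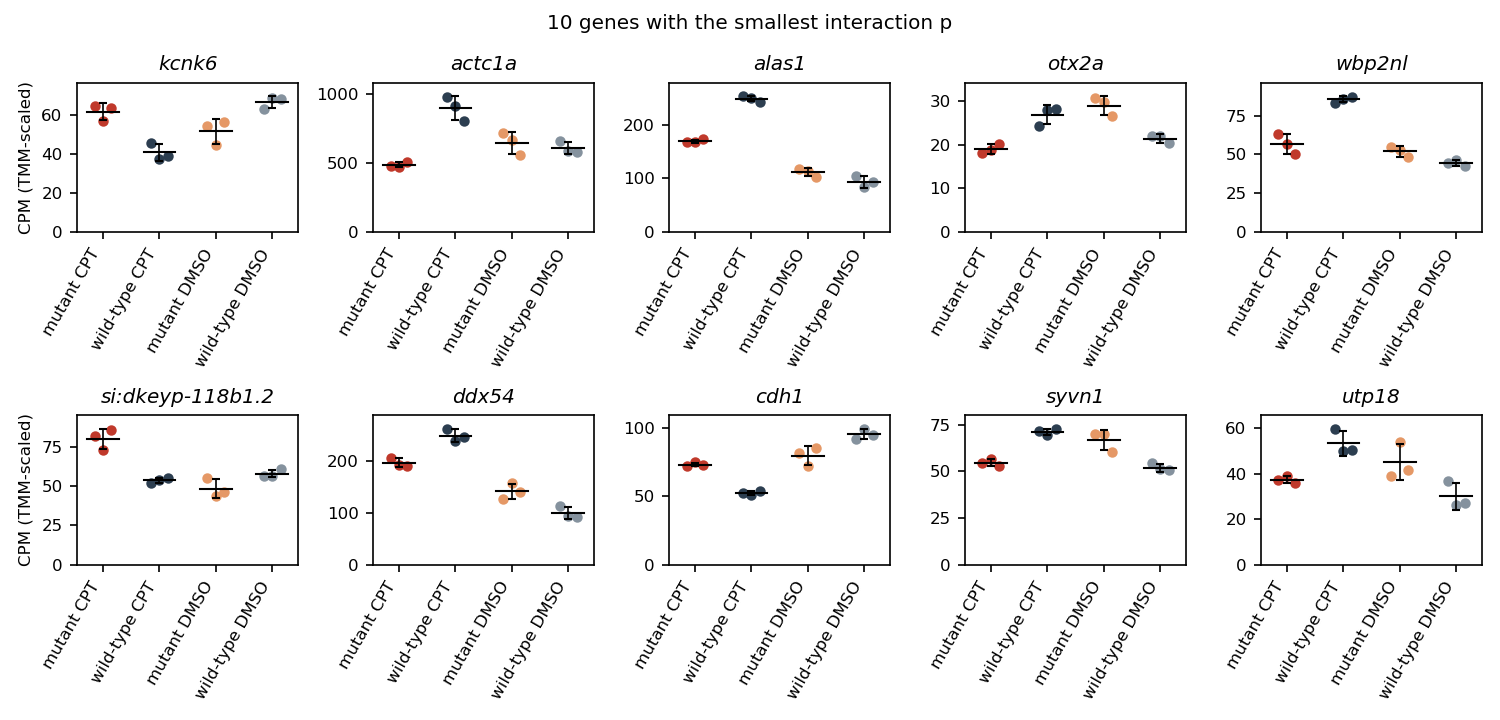
Expression in CPM (TMM-scaled, linear axes) of the 10 genes with the smallest interaction p; points are libraries, lines group means and bars SD (n = 3), in mutant CPT, wild-type CPT, mutant DMSO and wild-type DMSO groups. In every panel the genotype that is higher after camptothecin is the lower one in DMSO by its mean.

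The p53 response itself did not differ detectably between the genotypes after camptothecin. The gene cdkn1a had 465.0, 493.9 and 491.6 CPM in mutant CPT libraries, against 393.8, 486.8 and 542.0 CPM in wild-type CPT libraries, with overlap. Its log2 fold change was 0.03, with a 95% interval of -0.22 to 0.28 (edgeR adjusted p = 0.932). The gene mdm2 had 106.2, 134.0 and 136.4 CPM in mutant CPT libraries, against 108.0, 119.1 and 144.5 CPM in wild-type CPT libraries (0.02, interval -0.30 to 0.34, edgeR adjusted p = 0.969). The apoptosis trigger gene bbc3, for the BH3-only protein Puma, had 186.8, 191.9 and 211.7 CPM in mutant CPT libraries, against 165.3, 191.7 and 198.2 CPM in wild-type CPT libraries (0.09, interval -0.12 to 0.29, edgeR adjusted p = 0.673). In each of these 3 genes the genotypes overlapped. Of 30 tested p53 target genes, 1 rose and 0 fell, beside 1.13% and 2.16% of all tested genes, and the median log2 fold change was 0.03, beside 0.01 over all tested genes. Summed over the list, the targets had 5153, 5433 and 5526 CPM in mutant CPT libraries, against 5110, 5237 and 5750 CPM in wild-type CPT libraries, and 1339 to 1420 CPM in the 6 DMSO libraries. The member that rose was perp, for a membrane protein of p53-dependent apoptosis and desmosomes, with 313.0, 318.0 and 307.6 CPM in mutant CPT libraries, against 238.5, 260.1 and 241.8 CPM in wild-type CPT libraries (0.34 ± 0.09, edgeR adjusted p = 0.0489). Its call was lost with any 1 of the 6 CPT libraries left out, with adjusted p up to 0.152.

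Of 29 tested genes of the apoptosis machinery, 0 rose and 1 fell (median 0.02). It was apaf1, for the scaffold of the apoptosome that activates caspase-9, with 27.6, 23.6 and 28.5 CPM in mutant CPT libraries, against 44.3, 39.0 and 38.1 CPM in wild-type CPT libraries (-0.61 ± 0.12, edgeR adjusted p = 0.0089). The groups did not overlap, and the call was lost without mutant CPT library 2 (edgeR adjusted p = 0.0621). The initiator caspase gene casp8 had 98.9, 106.0 and 105.8 CPM in mutant CPT libraries, against 74.4, 81.2 and 98.8 CPM in wild-type CPT libraries and did not pass the test (0.29, interval 0.04 to 0.53, edgeR adjusted p = 0.184). Of 35 tested genes of DNA damage signalling and repair, 1 rose and 0 fell (median -0.03). The recombination gene brca2 had 50.7, 52.3 and 48.6 CPM in mutant CPT libraries, against 40.2, 32.5 and 32.9 CPM in wild-type CPT libraries (0.52 ± 0.11, edgeR adjusted p = 0.0167), a call lost in 4 of 6 fits with a CPT library left out, with adjusted p up to 0.116.

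Of 49 tested genes of G1/S and DNA replication, 0 rose and 1 fell (median 0.01). The member was mcm7, a subunit of the replicative helicase, with 677.4, 620.2 and 627.4 CPM in mutant CPT libraries, against 926.0, 1062 and 852.0 CPM in wild-type CPT libraries (-0.56 ± 0.12, edgeR adjusted p = 0.0178). It was also among the 19 interaction genes, at -0.91, and its CPT call was lost in 3 of 6 fits, with adjusted p up to 0.118. Of 38 tested genes of G2/M and mitosis, 1 rose, the kinetochore gene spc25 (0.50), and 1 fell, prc1b, for a protein of the central spindle (-0.50), and the median was -0.03. Their calls were lost in 4 and 2 of 6 fits, with adjusted p up to 0.0893 and 0.0881. With counts of 0 to 1 in either direction in each of these 5 lists, the shares lay near that background. Lists this short hold few calls at such shares, so these counts cannot show that the genotypes did not differ. The genotypes did not overlap in 10 of 30 p53 targets, 11 of 29 apoptosis genes and 8 of 35 DNA damage genes. They did not overlap in 15 of 49 G1/S genes and 9 of 38 G2/M genes, beside 22.7% of all tested genes. Without wild-type CPT library 3 the p53 targets gave 3 higher and 0 lower genes, the apoptosis genes 3 and 1, the DNA damage genes 1 and 1, the G1/S genes 3 and 3 and the G2/M genes 4 and 4. That fit called 419 higher and 626 lower over all tested genes. Scaled by library totals, with 1088 higher and 107 lower over all tested genes, the same lists gave 4 and 0, 3 and 1, 5 and 0, 8 and 1, and 3 and 0.

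Of 52 tested genes known as miR-34 targets in mammalian cells, 0 rose and 0 fell in mutant CPT embryos (edgeR adjusted p under 0.05). The shares over all tested genes were 1.13% and 2.16%, so counts of 0 in 52 lay near that background. By DESeq2 0 rose and 0 fell as well, beside 255 higher and 436 lower over all tested genes. Without wild-type CPT library 3 there was 1 higher, beside 419 over all tested genes. The list median was -0.03, and the 3 libraries of each genotype did not overlap for 11 of the 52, beside 22.7% of all tested genes. Summed CPM was 5251, 4957 and 5152 in mutant CPT libraries, against 5212, 5610 and 5384 in wild-type CPT libraries. Scaled by library totals, 4 were called higher and 0 lower, beside 1088 and 107 over all tested genes. The list median was then 0.16, beside 0.20 for all genes. The members with the smallest p were the synaptic vesicle gene syt1a (0.52, interval 0.17 to 0.87, edgeR adjusted p = 0.0907) and mdm4, for a partner of Mdm2 that inhibits p53 (0.37, interval 0.11 to 0.64, edgeR adjusted p = 0.102). The receptor gene notch1a had 130.2, 103.3 and 121.9 CPM in mutant CPT libraries, against 140.1, 157.3 and 136.4 CPM in wild-type CPT libraries (-0.29, interval -0.54 to -0.03, edgeR adjusted p = 0.203). The transcription factor gene mycn had 212.6, 207.7 and 199.0 CPM in mutant CPT libraries, against 229.3, 243.9 and 246.8 CPM in wild-type CPT libraries (-0.22, interval -0.42 to -0.02, edgeR adjusted p = 0.225). The survival gene bcl2a had 1.62, 0.965 and 1.18 CPM in mutant CPT libraries, against 0.944, 1.21 and 0.707 CPM in wild-type CPT libraries (0.43, interval -0.29 to 1.16, edgeR adjusted p = 0.538). The values of notch1a and mycn were lower in every mutant library than in any wild-type library, and those of bcl2a overlapped. The zebrafish orthologs were matched by symbol, and whether their transcripts carry miR-34 sites was not examined.

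The largest groups of small changes were in abundant transcripts. In the quintile of tested genes with the highest mean CPM, 133 of 2373 genes fell, with a median of -0.066. The share over all tested genes is thus not a like background for lists of abundant genes. Of 79 tested ribosomal protein genes, 0 rose and 13 fell (16.5%, beside 2.16% of all tested genes), and the median was -0.42, beside 0.01 over all genes. The values were below 0 in 69 of the 79, beside 5670 of all 11866 tested genes, and the genotypes did not overlap in 42, beside 22.7% of all tested genes. For example, rps18, of the small subunit, had 1070, 1177 and 1174 CPM in mutant CPT libraries, against 2449, 2055 and 1555 CPM in wild-type CPT libraries (-0.82 ± 0.16, edgeR adjusted p = 0.0119). For rpl17, of the large subunit, the values were 1981, 2108 and 2088 CPM in mutant CPT libraries, against 4310, 3454 and 2688 CPM in wild-type CPT libraries (-0.76, edgeR adjusted p = 0.0145), and rps6 had 2503, 2670 and 2566 CPM in mutant CPT libraries, against 5844, 4528 and 3097 CPM in wild-type CPT libraries (-0.80). The large subunit gene rpl29 fell as well (-0.85). In rps18, rpl17 and rps6 the genotypes did not overlap, the mutant libraries lay close together, and wild-type CPT library 3 was the wild-type library nearest to them. The calls of rps18, rpl17, rps6 and rpl29 were lost in 4, 5, 5 and 4 of the 6 fits with a CPT library left out, with adjusted p up to 0.0616, 0.0691, 0.106 and 0.1.

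Summed over the list, ribosomal protein genes had 154000, 173800 and 168900 CPM in mutant CPT libraries, against 245400, 208200 and 178400 CPM in wild-type CPT libraries. In DMSO they had 96400, 122900 and 110600 CPM in mutants, against 118100, 129100 and 146900 CPM in the wild type, where the median was -0.36 and 0 genes were called. Over all tested genes, 626 were called lower after camptothecin without wild-type CPT library 3. The number of members called lower after camptothecin was 37 without wild-type CPT library 3. It was 0 without wild-type CPT library 2 or mutant CPT library 3, beside 46 and 56 over all tested genes. It was 1 without mutant CPT library 1, mutant CPT library 2 or wild-type CPT library 1, beside 75, 58 and 116. The list median stayed between -0.54 and -0.26. Scaled by library totals, 8 were called lower and 3 higher, beside 107 and 1088 over all tested genes. The median was then -0.22, which lay 0.42 below that of all genes, beside 0.43 below with TMM factors. Ribosomal protein genes share sequence with pseudogenes and copies, so single members are uncertain.

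Of 34 tested skeletal muscle genes, 0 rose and 9 fell after camptothecin (26.5%, beside 2.16% of all tested genes; median -0.44), and 26 had values below 0, beside 5670 of all 11866. The actin gene actc1a had 480.6, 470.1 and 507.3 CPM in mutant CPT libraries, against 972.5, 912.6 and 802.0 CPM in wild-type CPT libraries (-0.88 ± 0.11, edgeR adjusted p = 0.000213). In DMSO it had 712.7, 663.5 and 558.9 CPM in mutants, against 656.2, 586.4 and 579.3 CPM in the wild type, and the interaction was -0.97 ± 0.16 (edgeR adjusted p = 0.0195). Mutant and wild-type levels thus lay apart after the drug and overlapped without it. The alpha-actin genes acta1b, with 1038, 728.3 and 875.1 CPM in mutant CPT libraries against 1561, 1712 and 1332 CPM in wild-type CPT libraries (-0.80), and actc1b, with 6576, 5608 and 6727 CPM in mutant CPT libraries against 11310, 11370 and 8826 CPM in wild-type CPT libraries (-0.74), fell too. The others were the myosin light chain gene myl1 (-0.51), the parvalbumin gene pvalb1 (-0.78), the creatine kinase gene ckmb (-0.52), the tropomyosin gene tpma (-0.49) and the troponin genes tnnt3b (-0.49) and tnni2a.4 (-0.43). The calls of actc1a and acta1b held with each CPT library left out, that of actc1b was lost in 2 of 6 fits (adjusted p up to 0.0699), and those of the remaining 6 were lost in 4 or 5, with adjusted p up to 0.132, 0.117, 0.135, 0.149, 0.244 and 0.202 in the order given.

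Summed CPM of the muscle genes was 27780, 23900 and 27840 in mutant CPT libraries, against 41540, 42930 and 32710 in wild-type CPT libraries, and 45250, 47010 and 39880 in mutant DMSO libraries, against 43320, 42960 and 43540 in wild-type DMSO libraries. The genotypes lay apart after camptothecin and overlapped in DMSO, where the median was -0.01 and 0 genes were called. Of the 34 genes, 1, actc1a, was called in the interaction. That call was lost in each of the fits named above that left 0 interaction calls and in the one without wild-type DMSO library 3. Without wild-type CPT library 3 the list gave 16 lower and 1 higher, without wild-type CPT library 2 or mutant CPT library 2 it gave 2 lower, and scaled by library totals 6 lower and 2 higher. Over all tested genes, 626 were lower and 419 higher without wild-type CPT library 3, and 107 lower and 1088 higher with library totals. Without wild-type CPT library 2 or mutant CPT library 2, 46 and 58 of all tested genes were lower. In pools of whole embryos, fewer cells of a type and less RNA per cell cannot be told apart. Actin genes share long stretches of sequence, and their reads could have been split between them. The cytoplasmic actin gene actb2 also fell, with 5468, 4926 and 5012 CPM in mutant CPT libraries, against 8184, 8393 and 7766 CPM in wild-type CPT libraries (-0.66, edgeR adjusted p = 0.00548). Of 19 tested heart genes, 0 rose and 0 fell by edgeR (median 0.07), and the smallest p were those of the troponin gene tnni1b (-0.46, adjusted p = 0.102) and the transcription factor gene hand2 (0.37, adjusted p = 0.142).

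**Figure D4:**
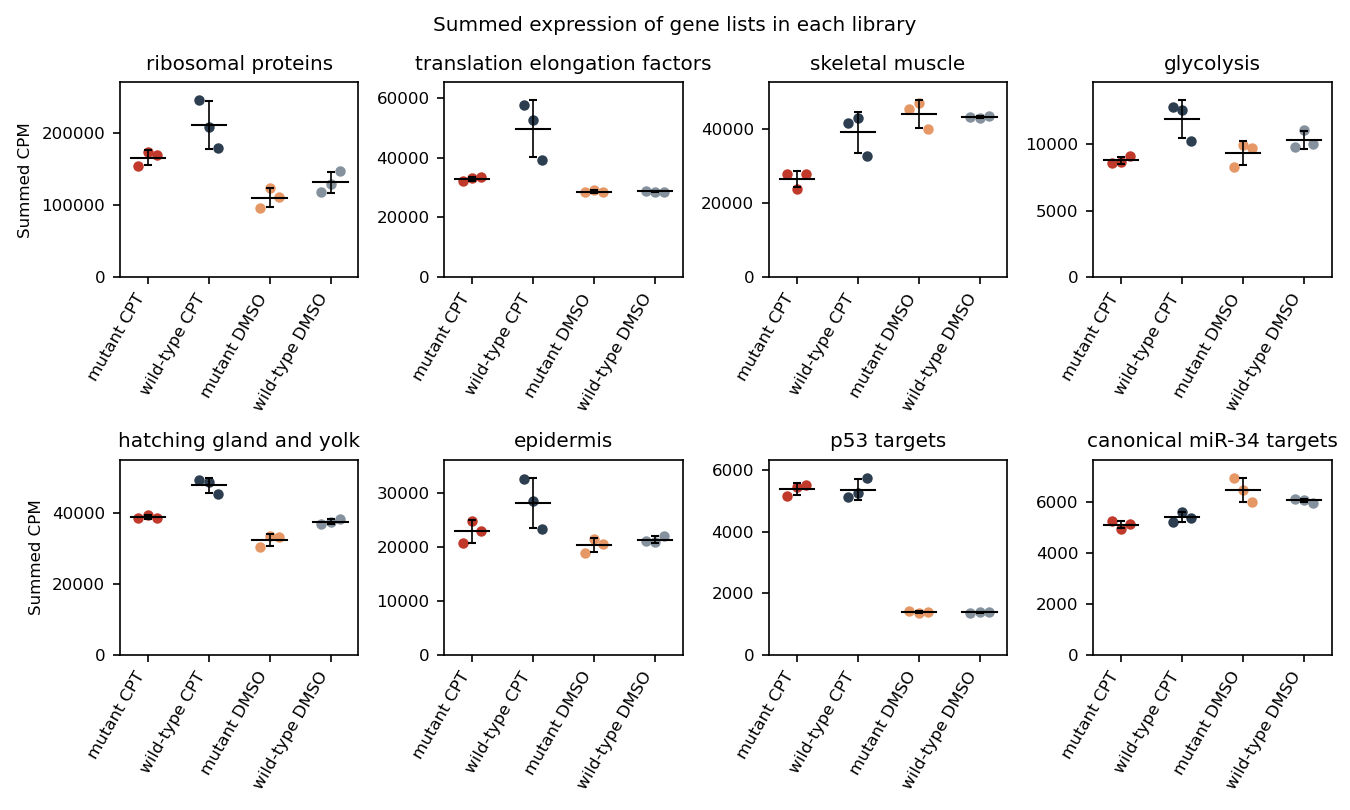
Summed CPM (TMM-scaled, linear axes) of 8 gene lists in each library, with mutant CPT, wild-type CPT, mutant DMSO and wild-type DMSO groups; points are libraries, lines group means and bars SD (n = 3). The skeletal muscle genes lie lower in mutant than in wild-type CPT libraries and overlap in DMSO, and the p53 targets are high in both CPT groups and overlap between the genotypes.

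Of 32 tested genes of the hatching gland and the yolk syncytial layer, the tissue that exports yolk nutrients, 0 rose and 6 fell (18.8%, beside 2.16% of all tested genes; median -0.22). All 6 encode secreted plasma proteins, so no hatching gland gene was among those called. The protease inhibitor gene serpina1l had 367.2, 340.1 and 398.0 CPM in mutant CPT libraries, against 622.5, 662.8 and 583.4 CPM in wild-type CPT libraries (-0.76 ± 0.11, edgeR adjusted p = 0.00137). The retinol-binding protein gene rbp4l (-0.64), the apolipoprotein gene apoa2 (-0.56) and the transferrin gene tfa (-0.46) fell as well. So did fgg (-0.50), for a fibrinogen chain, and the protease inhibitor gene serpina1 (-0.39). The calls of serpina1l and rbp4l held with each CPT library left out. Those of apoa2, tfa, fgg and serpina1 were lost in 4, 5, 5 and 5 of 6 fits, with edgeR adjusted p up to 0.1, 0.122, 0.214 and 0.201. The list summed to 38480, 39410 and 38460 CPM in mutant CPT libraries, against 49250, 48540 and 45250 CPM in wild-type CPT libraries. In DMSO it summed to 30420, 33460 and 33140 CPM in mutants, against 36870, 37220 and 38140 CPM in the wild type, so that the genotypes did not overlap in either treatment. The count was 7, 4 and 2 without wild-type CPT library 3, 1 or 2, beside 626, 116 and 46 lower over all tested genes. It was 2 without any 1 of the mutant CPT libraries, beside 75, 58 and 56 without mutant CPT library 1, 2 or 3. Scaled by library totals the count was 3, beside 107 over all tested genes, and the median of -0.02 lay 0.22 below that of all genes.

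Of 30 tested epidermal genes, 2 fell, beside 2.16% of all tested genes (list median -0.12). Both encode keratins of simple epithelia. The keratin gene krt4 had 2460, 2436 and 2496 CPM in mutant CPT libraries, against 6031, 5277 and 3178 CPM in wild-type CPT libraries (-0.97 ± 0.17, edgeR adjusted p = 0.00579), with wild-type CPT library 3 nearest to the mutants, and held with each CPT library left out. For krt8 (-0.69) the call was lost in 4 of 6 fits, with adjusted p up to 0.0758, and it lies on the mir34a chromosome at 314 places. Of 35 tested lens and retina genes, 0 rose and 2 fell (median -0.28, beside 0.02 in DMSO), beside 1.13% and 2.16% of all tested genes. Those that fell were the lens crystallin genes cryba1b, with 104.2, 75.03 and 94.56 CPM in mutant CPT libraries against 144.6, 179.0 and 121.9 CPM in wild-type CPT libraries (-0.70), and cryba4 (-0.57). These calls were lost in 4 and 3 of 6 fits, with adjusted p up to 0.127 and 0.118. The lists of epidermal and of lens and retina genes gave 6 and 5 lower genes without wild-type CPT library 3, and 1 and 0 without wild-type CPT library 2. Over all tested genes these fits called 626 and 46 lower. Library totals as the scaling gave 2 lower and 1 higher epidermal genes, and 2 lower lens and retina genes, beside 107 lower and 1088 higher over all tested genes.

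Among neural genes, 2 of 25 tested progenitor genes rose and 3 fell (median -0.10), beside 1.13% and 2.16% of all tested genes. The Notch target gene her15.1, whose protein keeps progenitors undifferentiated, had 73.0, 88.8 and 79.6 CPM in mutant CPT libraries, against 23.8, 36.4 and 52.6 CPM in wild-type CPT libraries (1.09 ± 0.25, edgeR adjusted p = 0.0408). The RNA-binding protein gene msi1 (0.39) rose as well, while the proneural genes ascl1a (-0.51) and neurog1 (-0.46) and the progenitor gene sox3 (-0.42) fell. These 5 calls were lost in 4 or 5 of 6 fits with a CPT library left out, with adjusted p up to 0.149, 0.113, 0.119, 0.153 and 0.19 in the order given. With library totals as the scaling, 2 of the progenitor genes were called higher and 0 lower, beside 1088 and 107 over all tested genes. Of 32 tested genes of differentiating neurons, 0 rose and 0 fell by edgeR (median -0.11). The neuronal RNA-binding protein gene elavl3 (-0.53, adjusted p = 0.0735) and the autonomic neuron gene phox2bb (-0.40, adjusted p = 0.0963) had the smallest p there. Of 38 tested genes of synaptic adhesion and release, 0 rose and 0 fell by edgeR (median -0.04), and the smallest p were those of the vesicle fusion gene snap25b (-0.57, adjusted p = 0.0542) and of syt1a, given above. Without wild-type CPT library 3, 4 of the synaptic genes were called lower, beside 626 over all tested genes.

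In the remaining lists at most 2 genes were called, while 1.13% of all tested genes rose and 2.16% fell. Of 28 tested heat shock genes, 2 rose (median 0.06): the collagen chaperone gene serpinh1b (0.58) and hsf1, for the master regulator of the heat shock response (0.40). Of 35 tested circadian clock genes, 1 fell (median -0.18), the retinal orphan receptor gene rorb (-1.03), and of 36 tested chromatin modifiers, 1 fell (median -0.03), the histone demethylase gene kdm5ba (-0.86). Of 28 tested genes of the neural crest and pigment cells, snai2 rose (0.42) and the melanin synthesis gene tyrp1b fell (-0.45), with a median of -0.05. In the lists of 26 erythroid genes, 17 myeloid genes and 27 notochord and cartilage genes, 1 gene each fell: the embryonic beta-globin gene hbbe1.3 (-0.55), the lysosomal protease gene ctsba (-0.40) and the cartilage collagen gene col9a1b (-0.39), with list medians of -0.03, 0.21 and -0.04. Of these 9 calls, that of kdm5ba was lost without mutant CPT library 2 alone (edgeR adjusted p = 0.0593), and the others in 4 to 6 of the 6 fits with a CPT library left out, with adjusted p up to 0.197. The higher and lower calls with library totals were 5 and 0 for heat shock, 1 and 1 for the clock, 3 and 1 for chromatin, 4 and 0 for the neural crest, 1 and 0 for erythroid, 2 and 0 for myeloid and 0 and 0 for notochord and cartilage genes. Over all tested genes they were 1088 and 107. By edgeR at an adjusted p under 0.05, 0 of 24 endothelial genes (median 0.01), 0 of 32 immediate early and AP-1 genes (-0.02), 0 of 34 inflammation and interferon genes (0.02) and 0 of 32 genes of the integrated stress and unfolded protein response (-0.01) were called. The smallest p in these lists were those of cebpb, for a transcription factor of inflammation (-0.46, adjusted p = 0.0506), and hsp90b1, for the Hsp90 of the endoplasmic reticulum (-0.51, adjusted p = 0.0637). The interferon-induced gene isg15 had 189.0, 244.2 and 219.3 CPM in mutant CPT libraries, against 175.9, 141.9 and 218.3 CPM in wild-type CPT libraries, which overlapped (0.28, interval -0.08 to 0.64, edgeR adjusted p = 0.387).

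**Figure D5:**
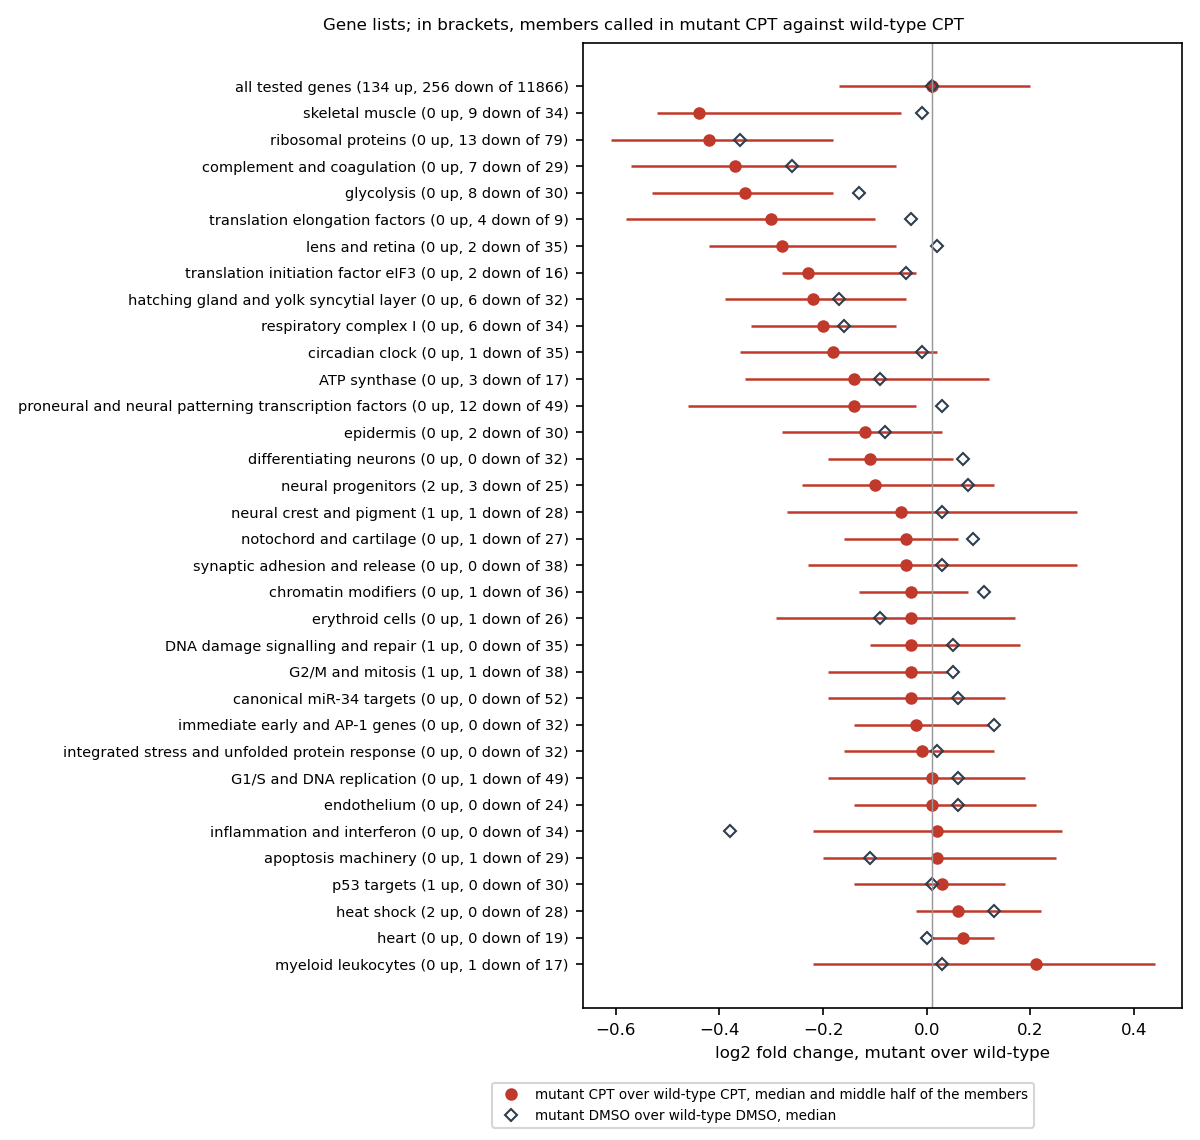
Median log2 fold change (points) with the range between the quartiles of the members (bars) of each gene list, mutant over wild-type CPT embryos, with diamonds for the medians in DMSO. The ribosomal protein and skeletal muscle lists have the lowest CPT medians, -0.42 and -0.44, beside 0.01 for all tested genes, while the p53 targets lie at 0.03.

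Among the 47 calls made in every setting was top2b, for topoisomerase II beta, an enzyme that relaxes DNA in dividing and non-dividing cells and is distinct from the topoisomerase that camptothecin traps. It had 145.6, 140.8 and 129.7 CPM in mutant CPT libraries, against 102.8, 100.9 and 79.2 CPM in wild-type CPT libraries (0.56, edgeR adjusted p = 0.00677). The groups did not overlap. Others among the 47 were dkk3b (1.28), of the family of secreted Wnt antagonists, the RNA-binding protein gene elavl1b (0.66), the actin bundling gene pls3 (0.53) and, among the falls, vcp (-0.75), for the AAA ATPase that extracts ubiquitinated proteins. These genes were named after their values were seen.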

How the data were processed

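The analysis started from the deposited table of raw read counts per gene in 12 libraries of polyadenylated RNA, with no normalization by the authors. Trim Galore 0.4.4, STAR 2.7, Bowtie2, Picard 2.5.0, HTSeq 0.9.1 and danRer11 are named in the submitters' processing notes, without their roles. The annotation, strand setting and handling of multiply mapped reads were not given in the sources used here, so counts of near-identical, overlapping or antisense genes are uncertain. Genes were filtered with filterByExpr, scaled with TMM factors and fitted with edgeR's quasi-likelihood model (edgeR 4.0.16, R 4.3.3) on the 4 group means of all 12 libraries, with 8 residual degrees of freedom and Benjamini-Hochberg adjustment over 11866 genes at 0.05. SE was computed as the absolute log2 fold change divided by the root of F, and limits of 0 counts and counting intervals (95%) cover counting error only.

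The scripts were tested on simulated data. Alternatives used DESeq2 1.42.0, limma-voom (limma 3.58.1), other scalings and filters, thinning and leave-one-out fits. The text names the 10 genes with the smallest p, the 8 largest rises and the 8 largest falls among called genes with a mean of at least 1 CPM in the higher group and no overlap between groups, the 5 interaction genes with the smallest p, calls within 50 places of mir34a, up to 4 called members of each list or 2 with the smallest p, and a few fixed genes. Other names were added after their values were seen. The comparison, lists and fixed genes were chosen with earlier results of these data known, so a list's count is a description and no list was tested. Gene names were matched to the GRCz12tu gene table for 99.1% of tested genes.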

Additional observations from a re-analysis of the deposited data

Results flagged for a closer look

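The genotype difference after camptothecin differed from that in DMSO in 19 genes by edgeR's interaction test, and each value here is the CPT log2 fold change minus the DMSO one. Positive values were 0.97 for kcnk6, 0.84 for si:dkeyp-118b1.2 and 0.74 for cdh1, which encodes E-cadherin. Genes of nuclear and RNA functions had negative values: -0.93 for otx2a, -0.84 for the RNA helicase gene ddx54, -1.10 for utp18, of the small ribosomal subunit processome, -0.91 for mcm7, -0.82 for irf2bp2b, -0.66 for ss18, of the BAF chromatin complex, and -0.76 for the splicing factor gene puf60b. Genes of metabolism, membranes and the cytoskeleton followed, at -0.97 for actc1a, -0.82 for alas1, -0.88 for the mitochondrial gene ghitm, -0.75 for syvn1 and -0.88 for rnf139, both for ubiquitin ligases of the endoplasmic reticulum, -0.72 for the actin capping gene capzb and -0.83 for the transglutaminase gene tgm1l4. The remaining values were -0.82 for wbp2nl and -0.75 for zgc:154064. The number of such genes ran from 0 to 505 with single libraries left out, and what lies behind the differences was not tested.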

How the results depend on the processing

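After camptothecin, 390 genes were called with all libraries, 1195 with library totals as the only scaling, 691 by DESeq2 and 193 with the 6 CPT libraries alone, of which 239, 384 and 174 were among the 390. With single libraries left out the count ran from 65 to 1045, the DMSO count of 71 from 24 to 196 and the interaction count of 19 from 0 to 505. DESeq2 called 186 genes in DMSO. The interaction called 7 genes with library totals, 35 without a low-count filter, 343 by DESeq2 and 33 with thinned libraries. The fits that called 0 still held 1309 to 1705 genes at an unadjusted p under 0.05. A replicate block gave 475, 84 and 25 calls in CPT, DMSO and the interaction, and each list's median moved by less than the spread between libraries. Same-numbered libraries correlated at -0.158 to 0.232 in their deviations, with 3 of 18 pairs over 0.1. Such correlations over 3 libraries per group cannot decide whether equal numbers mark a shared clutch or day, which the labels do not give.

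The direction of each called gene that the text names held in every setting. Among genes that were not called, signs turned for 3 of 20, mdm2, cdkn1a and idh3a, with a library left out (-0.07 to 0.13, -0.09 to 0.13 and -0.04 to 0.07). The cause of these shifts was not tested. The median of 25 of 33 lists moved with library totals, in step with all genes. Within 25, 50 and 100 places of mir34a, 1 of 7, 3 of 25 and 11 of 58 tested genes were called. Of all tested genes 3.29% were called. The mir34a difference of -0.648 CPM was -0.709 on TMM-scaled totals and -0.794 to -0.399 with a wild-type library left out. For mir34a and other transcripts of few reads the low counts limited what could be measured, and why they were low was not tested.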

Other observations

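Gene families picked after the values were seen gave further descriptions of the genotype difference after camptothecin, with no test of the family. Over all tested genes 1.13% rose and 2.16% fell. Of 30 tested glycolysis genes, 0 rose and 8 fell (median -0.35, and -0.13 in DMSO), among them the glyceraldehyde-3-phosphate dehydrogenase gene gapdhs (-0.53) and the aldolase gene aldocb (-0.66). Their summed level was 8562, 8701 and 9102 CPM in mutant CPT libraries, against 12820, 12630 and 10240 CPM in wild-type CPT libraries. Of 9 tested translation elongation factor genes, 4 fell (median -0.30, and -0.03 in DMSO). The main one, eef1a1l1, had 21390, 22560 and 22630 CPM in mutant CPT libraries, against 37870, 34210 and 26910 CPM in wild-type CPT libraries (-0.57), and eef2b had 7294, 6785 and 6906 CPM, against 13710, 12790 and 7426 CPM (-0.69). Both calls were lost in 5 of the 6 fits with a CPT library left out, with edgeR adjusted p up to 0.118 and 0.149, while those of gapdhs and aldocb held in all 6.

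Of 29 tested complement and coagulation genes, 3 fell in DMSO (median -0.26), where 0.405% of all tested genes fell. After camptothecin 7 of the 29 fell (median -0.37), and 0 rose in either treatment. In 34 genes of respiratory complex I, 6 fell (median -0.20), in 17 of ATP synthase 3 (median -0.14) and in 16 of the initiation factor eIF3 2 (median -0.23). Of 49 proneural and neural patterning transcription factor genes, 12 fell and 0 rose (median -0.14, and 0.03 in DMSO), among them ascl1b (-0.54) and otpa (-0.66). Scaled by library totals, the lower and higher calls were 2 and 1 for these transcription factors, 4 and 0 for glycolysis, 4 and 1 for elongation factors, 4 and 0 for complement and coagulation, 1 and 1 for complex I, 0 and 3 for ATP synthase and 0 and 1 for eIF3. Over all tested genes they were 107 and 1088. The ATP synthase and eIF3 genes called lower with TMM factors kept their direction with library totals but were not called. Their log2 fold changes were then -0.26 for each of atp5f1b, atp5fa1 and atp5mc3a, -0.31 for eif3ea and -0.36 for eif3i. The higher calls were thus of other members, while the median of all tested genes moved to 0.20. Relative to all genes the medians of ATP synthase and eIF3 hardly moved. They lay 0.15 and 0.23 below that of all genes with library totals, beside 0.15 and 0.24 below with TMM factors. Without wild-type CPT library 2, the counts of lower genes were 2 for glycolysis, 0 for elongation factors, 3 for complement and coagulation, and 0 for each of complex I, ATP synthase, eIF3 and the transcription factors. Without wild-type CPT library 3 they were 16 for glycolysis, 5 for elongation factors, 10 for complement and coagulation, 9 for complex I, 5 for ATP synthase, 7 for eIF3 and 12 for the transcription factors. Over all tested genes, 46 were called lower without wild-type CPT library 2 and 626 without wild-type CPT library 3.

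The calls were not spread evenly over abundance or gene length. In the quintile of tested genes with the highest mean CPM, 31 rose and 133 fell (6.91% called), and in the lowest quintile 16 rose and 16 fell (1.35%). In the quintile with the shortest genes of the reference gene table, 24 rose and 82 fell (4.51%), and in the one with the longest, 27 rose and 18 fell (1.91%). Abundant genes carry more reads and therefore smaller counting error, and the part of this in the difference was not tested.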
